A study of Mus musculus with 2 samples.

Results

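The genes described here are 7 heavy chains of major histocompatibility complex (MHC) class I, H2-K1, H2-D1, H2-Q4, H2-Q6, H2-Q7, H2-Q10 and H2-T23, and B2m, their shared light chain. They are 8 of the 31053 genes in the count tables and were taken by name. Their raw counts of unique molecular identifiers (UMIs, tags that mark single captured RNA molecules) were followed across the blood cell classes and both genotypes. The study compared peripheral blood of db/db mice with that of wt mice by droplet single-cell RNA sequencing of the 3′ ends of polyadenylated RNA. The db/db group carried the db mutation of the leptin receptor on both alleles, which is known to give obesity and diabetes, and the wt group was wild-type. Both groups were male mice of strain C57BLKs/J, 21 weeks old, and red blood cells were lysed after bleeding. Whether both groups carried the same MHC haplotype, the set of alleles of these linked genes, was not tested; a difference would change what the ratios of H2-K1, H2-D1, H2-Q6, H2-Q7 and H2-Q10 between the groups mean, and it cannot be told apart from genotype here. Each group had 3 mice whose blood, 200 µl per group, went into 1 library, and no map from cells to mice was used here. Genotype, mouse and library can therefore not be told apart, no test between groups is possible, and every interval given covers counting error only. The db mutation changes the splicing of the receptor transcript, so that counts of 3′ ends do not check the genotype labels.

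A class I molecule is a heavy chain held at the cell surface with B2m and a peptide made from the cell's own proteins, which CD8 T cells inspect. H2-K1 and H2-D1 encode the classical heavy chains of nearly every nucleated cell. The others are nonclassical: H2-Q6 and H2-Q7 encode Qa-2 molecules, H2-T23 encodes Qa-1, a ligand of receptors on NK and T cells, H2-Q10 encodes a secreted heavy chain known from liver, and H2-Q4 is a further gene of the Q group. Interferon signalling, NF-kB and the regulator NLRC5 are known to drive the classical genes through shared promoter elements.

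The class I genes lie in the MHC on chromosome 17 of build mm10. H2-K1 runs on the minus strand at chr17:33996017-34000347, and H2-T23, also on the minus strand, at chr17:36029773-36032855. On the plus strand between them lie H2-D1 at chr17:35262730-35267499, H2-Q4 at chr17:35379617-35385290, H2-Q6 at chr17:35424850-35430055, H2-Q7 at chr17:35439155-35443773 and H2-Q10 at chr17:35470089-35474563. B2m is apart from them at chr2:122147686-122153083. The promoters show how alike these genes are just upstream of their starts. The stretch at the place of both known regulatory elements is printed for the heavy chains in which the interferon-stimulated one was found. It is taken from RefSeq on GRCm38.p6, 5′ to 3′ on the gene's own strand. The H2-D1 stretch lies inside the gene interval given above, because it was placed 180 to 136 bases before a start further downstream. Capitals mark exact matches to the letters that H2-K1 has at the NF-kB element of class I genes, GGGGATTCCCC, and at their interferon-stimulated element, AGTTTCACTTC; for B2m they mark GAAACTGAAA.
H2-K1 (chr17:34000423-34000467): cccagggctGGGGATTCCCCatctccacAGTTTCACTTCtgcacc
H2-D1 (chr17:35262914-35262958): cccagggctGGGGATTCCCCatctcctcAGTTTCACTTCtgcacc
H2-Q4 (chr17:35379434-35379478): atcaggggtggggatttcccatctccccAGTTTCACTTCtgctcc
H2-Q6 (chr17:35424668-35424712): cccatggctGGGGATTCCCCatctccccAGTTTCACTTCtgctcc
H2-Q7 (chr17:35439012-35439056): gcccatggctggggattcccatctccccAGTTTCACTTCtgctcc
H2-Q10 (chr17:35469904-35469948): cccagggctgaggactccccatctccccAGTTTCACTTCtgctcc
B2m (chr2:122147538-122147582): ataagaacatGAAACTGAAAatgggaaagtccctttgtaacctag
Both strands of the 300 bases around each start were searched, and the motifs do not overlap each other in these windows. AGTTTCACTTC was present in H2-K1, H2-D1, H2-Q4, H2-Q6, H2-Q7 and H2-Q10, and in 0.0592% of the promoters of 27025 genes. GGGGATTCCCC was present in H2-K1, H2-D1 and H2-Q6, and in 0.0333% of those promoters, whereas H2-Q4, H2-Q7 and H2-Q10 do not hold this exact string. H2-Q7 has all of its letters there but the last, and whether such near matches act as the element was not tested. GAAACTGAAA was in 0.263% of them. H2-T23 held none of these 3 letter strings in its window. A match is a description of the reference sequence and not a measured site.

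After barcodes with 200 to 6000 genes and under 10% mitochondrial UMIs were kept, 6109 of 19912 db/db barcodes and 5727 of 16700 wt barcodes remained, with median depths of 2523 and 2562 UMIs. The libraries stood apart in several ways. Haemoglobin genes held 77.2% of all UMIs of the db/db library and 69.4% of the wt library, and Gm42418, a gene that overlaps ribosomal RNA, took a median of 0.533% of a kept db/db cell and 2.64% of a kept wt cell. The mitochondrial limit removed 374 db/db and 1849 wt barcodes. The libraries shared 91 barcodes, of which 28 db/db and 30 wt cells were kept, and clusters were named from marker genes as B cells, T cells, NK cells, monocytes, neutrophils, platelets and erythroid cells, with 55 to 2118 db/db cells and 104 to 2197 wt cells each. Clusters with markers of kidney proximal tubule (94 db/db and 3 wt cells) and of basophils (7 and 6) and the unnamed clusters (862 and 199) were not compared as classes. The sum of the 9 kidney markers was also higher in db/db in each of the 7 classes, at between 28.99 and 227 CPM in db/db and between 0 and 19.5 CPM in wt, and their part in the ratios was not tested. Values are CPM, a gene's count per 1000000 UMIs summed over a class in 1 library, and ratios are db/db over wt; since UMIs count 3′ ends, CPM were not divided by transcript length.

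Class I RNA was counted in every class, highest in NK cells and lowest in erythroid cells of both libraries (plot of CPM by class). In db/db the 7 heavy chains summed to 6892 CPM in NK cells, 5074 in monocytes, 4359 in T cells, 3699 in B cells, 3679 in neutrophils, 2356 in platelets and 765 in erythroid cells. B cells and neutrophils did not differ there beyond their counting intervals of 3646 to 3752 and 3540 to 3822 CPM. In wt the sums were 6301 CPM in NK cells, 5686 in monocytes, 4745 in neutrophils, 4273 in T cells, 3752 in B cells, 2655 in platelets and 874 in erythroid cells, and no neighbours had overlapping intervals. H2-Q10 gave 675 CPM of the wt neutrophil sum and 12.9 CPM of the wt T cell sum. Without that gene wt T cells stand above wt neutrophils. Haemoglobin held 75.7% of the erythroid UMIs in db/db and 73.2% in wt, which lowers the CPM of every other gene in that class. The erythroid class also carried B cell markers, 2812 CPM in db/db and 3316 CPM in wt, with 3 of 13 genes higher in db/db. In the B cell class these markers summed to 15384.5 CPM in db/db and 18194.9 CPM in wt. How much of the class I RNA of the erythroid class, here and below, came from B cells was not tested. B2m had another order: in db/db it was highest in platelets, at 2186 CPM, followed by monocytes at 1902 and NK cells at 1839. The interval of NK cells, 1643 to 2052 CPM, overlapped with those of both. T cells at 1296 CPM, B cells at 995, neutrophils at 937 and erythroid cells at 222 followed, and B cells and neutrophils did not differ beyond their intervals. In wt B2m was highest in monocytes, at 2719 CPM, then platelets at 2128, NK cells at 1734, neutrophils at 1634, T cells at 1512, B cells at 1103 and erythroid cells at 235; neutrophils overlapped with both NK cells and T cells.

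**Figure D1:**
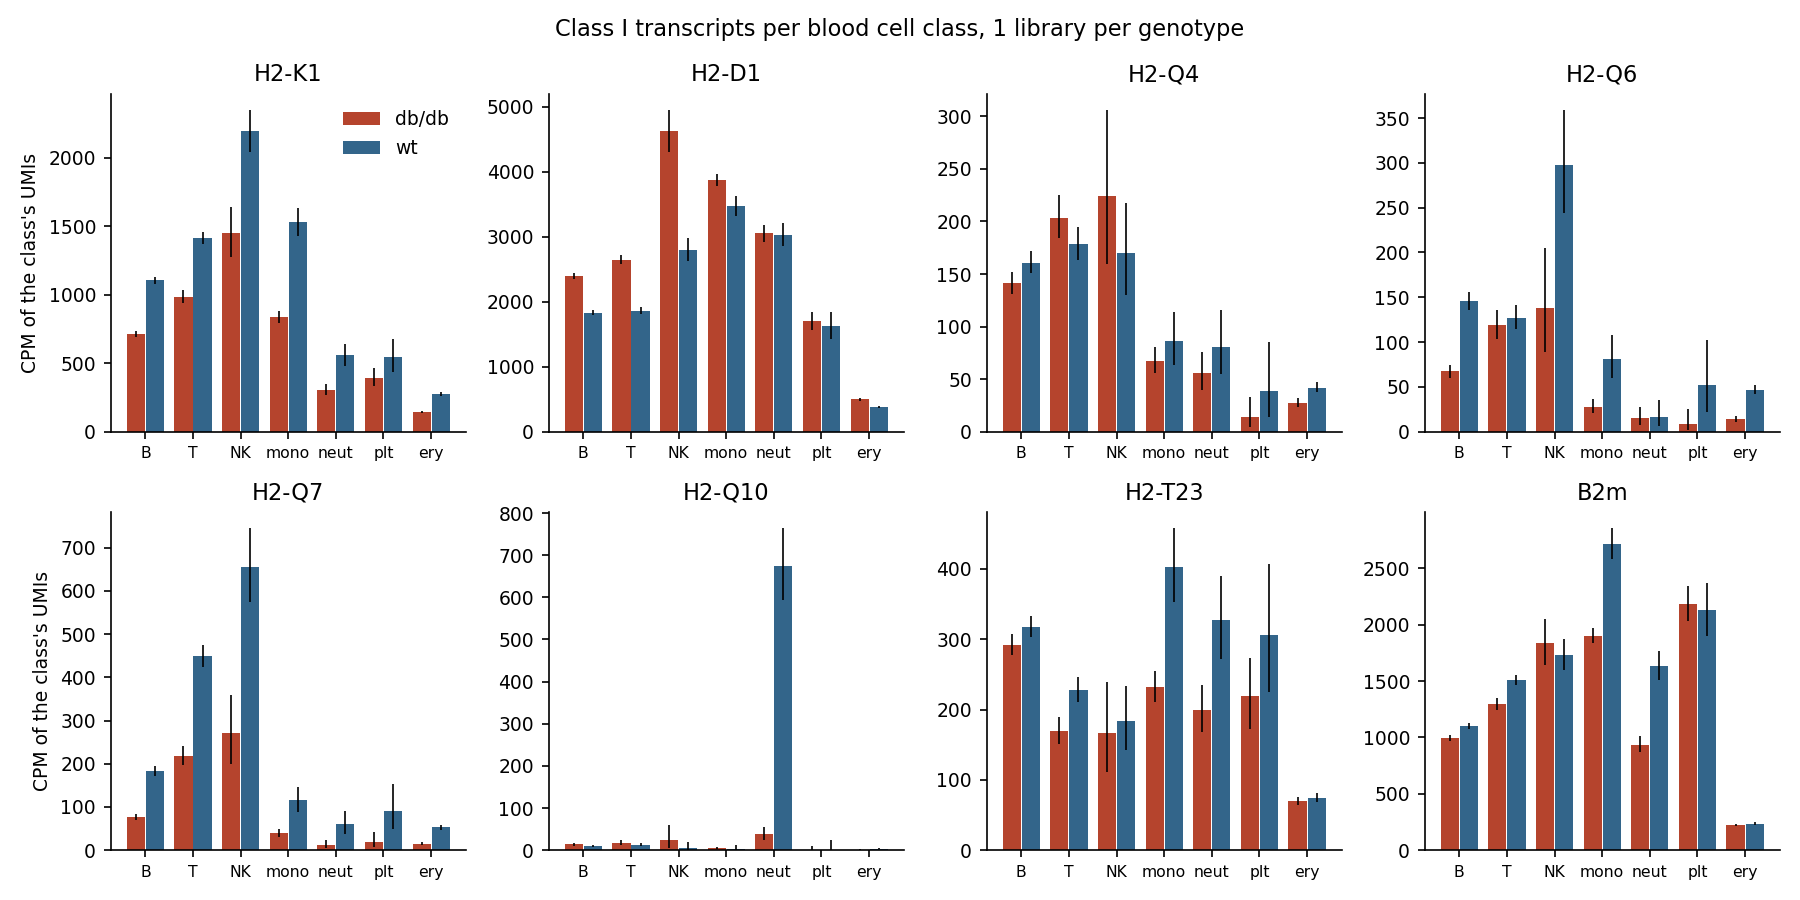
CPM of each of the 8 genes (y axis, linear, from 0) in 7 blood cell classes (x axis: B, T and NK cells, mono for monocytes, neut for neutrophils, plt for platelets, ery for erythroid cells), db/db left of wt, 1 library each; black lines are exact Poisson 95% intervals. H2-K1 bars are lower in db/db in all 7 classes, and H2-Q10 stands at 675 CPM in wt neutrophils and at 37.7 CPM in db/db neutrophils.

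The total of the heavy chains was close to equal between the genotypes in B and T cells and lower in db/db in monocytes and neutrophils. It was 0.986 (95% interval 0.967 to 1.005) in B cells, 1.02 (0.992 to 1.05) in T cells and 1.09 (1.02 to 1.17) in NK cells. Haemoglobin took 7.63% of the UMIs of db/db and 15.6% of those of wt NK cells, and without it the NK sums were 7461 CPM in db/db and 7468 CPM in wt, a ratio of 0.999 (0.931 to 1.07). The ratio of the sum was 0.892 (0.857 to 0.929) in monocytes, 0.775 (0.730 to 0.824) in neutrophils, 0.887 (0.787 to 1.002) in platelets and 0.876 (0.844 to 0.908) in erythroid cells. H2-Q10 alone gave 37.7 CPM of the db/db and 675 CPM of the wt neutrophil sum, the largest difference of any heavy chain there. On the log2 scale of CPM plus 10 these are -0.02, 0.03, -0.16 and -0.37 in B cells, T cells, monocytes and neutrophils, and the median gene lay at -0.02, -0.04, -0.04 and -0.19. In neutrophils the sum moved to -0.05 under another scaling of the libraries (TMM), which put the median gene at 0.07, so the size of the neutrophil difference depends on the scaling.

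What differed in all classes was the balance of the 2 classical heavy chains. H2-K1 had 711 CPM in db/db B cells and 1105 CPM in wt B cells, a ratio of 0.644 (0.618 to 0.671). H2-D1 had 2396 CPM in db/db B cells and 1829 CPM in wt B cells, a ratio of 1.31 (1.28 to 1.34). H2-K1 was thus the lower and H2-D1 the higher gene in db/db B cells. Different clusters hold most of the B cells of each library: cluster 0 held 1509 db/db and 467 wt cells, and cluster 2 held 301 and 1143. Within cluster 0 the ratios were 0.638 for H2-K1 and 1.36 for H2-D1, and within cluster 2 they were 0.664 and 1.26. The B cell classes of both libraries had similar haemoglobin shares, 4.27% in db/db and 4.84% in wt, but Gm42418 took 0.605% of the UMIs in db/db and 2.78% in wt; without haemoglobin, mitochondrial and Gm42418 UMIs the log2 ratios in B cells were -0.69 for H2-K1 and 0.33 for H2-D1, beside -0.63 and 0.39 with them. Platelet markers summed to 117 CPM in db/db B cells and 57.9 CPM in wt B cells, with 8 of 10 genes higher in db/db and none at 0 in either library; their part was not tested.

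In T cells, which read class I molecules and also carry them, H2-K1 had 985 CPM in db/db and 1417 CPM in wt, and H2-D1 had 2647 CPM in db/db and 1861 CPM in wt. The ratios were 0.695 (0.658 to 0.735) for H2-K1 and 1.42 (1.37 to 1.48) for H2-D1. Both kinds of T cell showed this. In cells with Cd4 and without Cd8a or Cd8b1 UMIs, 88 in db/db and 190 in wt, the ratios were 0.663 for H2-K1 and 1.37 for H2-D1, and in cells with Cd8a or Cd8b1 and without Cd4 UMIs, 219 in db/db and 252 in wt, they were 0.728 and 1.49. Platelet markers summed to 302 CPM in db/db T cells and 80.7 CPM in wt T cells, with 10 of 10 genes higher in db/db and none of them at 0 in db/db and 1 in wt, and haemoglobin took 19.7% and 15.3% of the UMIs; their part in these ratios was not tested. In NK cells, whose inhibitory receptors bind class I, the 2 genes lay apart in the same way: H2-K1 stood at 1449 CPM in db/db and 2193 CPM in wt, and H2-D1 at 4622 CPM in db/db and 2796 CPM in wt. These NK values rest on 55 db/db and 104 wt cells.

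In monocytes and neutrophils H2-K1 was lower in db/db while H2-D1 differed less. Monocytes had 836 CPM of H2-K1 in db/db and 1527 CPM in wt, a ratio of 0.548 (0.504 to 0.596), and 3867 CPM of H2-D1 in db/db and 3470 CPM in wt, a ratio of 1.11 (1.06 to 1.17). Neutrophils had 308 CPM of H2-K1 in db/db and 556 CPM in wt, a ratio of 0.553 (0.455 to 0.672), and 3050 and 3030 CPM of H2-D1, a ratio of 1.006 (0.936 to 1.08). Under TMM scaling the log2 ratio of H2-K1 in neutrophils was -0.53, beside -0.83, and that of H2-D1 was 0.32, beside 0.01. Without cells that carry markers of several lineages, which leaves 192 db/db and 63 wt neutrophils, the log2 ratio of H2-K1 was -0.29, inside the threshold of 0.5 used below for calls. Nonclassical monocytes, which patrol vessels, had more H2-K1 and H2-D1 RNA in both libraries than classical ones, which enter tissue, but less H2-T23. Cells with more nonclassical than classical marker UMIs had 5169 CPM of H2-D1 in db/db and 4332 CPM in wt, against 3075 CPM in db/db and 2468 CPM in wt for cells with more classical markers. H2-T23 had 203 CPM in db/db and 309 CPM in wt in the nonclassical cells, against 249 CPM in db/db and 505 CPM in wt in the classical cells. The 2 db/db values rest on 140 and 283 UMIs, and whether they differ beyond counting error was not tested. The H2-K1 ratio was 0.609 in the nonclassical cells, 188 in db/db and 79 in wt, and 0.622 in the classical cells, 179 in db/db and 42 in wt. B cell markers summed to 432 CPM in db/db monocytes and 921 CPM in wt monocytes, with 0 of 13 genes higher in db/db and none at 0 in either library, and neutrophil markers summed to 597 CPM in db/db and 195 CPM in wt, with 11 of 14 higher in db/db and 6 of 14 at 0 in wt; their part was not tested. Outside the leukocytes, H2-K1 had 395 and 547 CPM in db/db and wt platelets and 143 and 275 CPM in db/db and wt erythroid cells, whereas H2-D1 had 1701 and 1621 CPM in platelets and 495 and 381 CPM in erythroid cells. Platelets carried B cell markers as well, 957 CPM in db/db and 2577 CPM in wt, with 1 of 13 genes higher in db/db and none at 0 in either library. The part of these markers' cells in the platelet values was not tested.

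The ratio of H2-K1 to H2-D1 within the same cells does not depend on the scaling of a library or on haemoglobin RNA. There were 0.297 H2-K1 UMIs per H2-D1 UMI in db/db B cells and 0.604 in wt B cells, which gives a ratio of these ratios of 0.492 (0.468 to 0.516). It was 0.489 in T cells, 0.400 in NK cells, 0.491 in monocytes, 0.549 in neutrophils, 0.688 in platelets and 0.401 in erythroid cells, and every interval lay under 1. On the log2 scale the values in B cells, T cells, monocytes and neutrophils were -1.02, -1.03, -1.02 and -0.86. Among the 17 clusters with at least 20 cells in each library, 3 unnamed clusters included, the ratio was lower in db/db in 17, and the clusters spanned 0.235 in erythroid cluster 4 to 0.688 in platelet cluster 11. The B cell clusters alone gave 0.469 in cluster 0, 0.528 in cluster 2, 0.671 in cluster 6 and 0.455 in cluster 12.

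**Figure D2:**
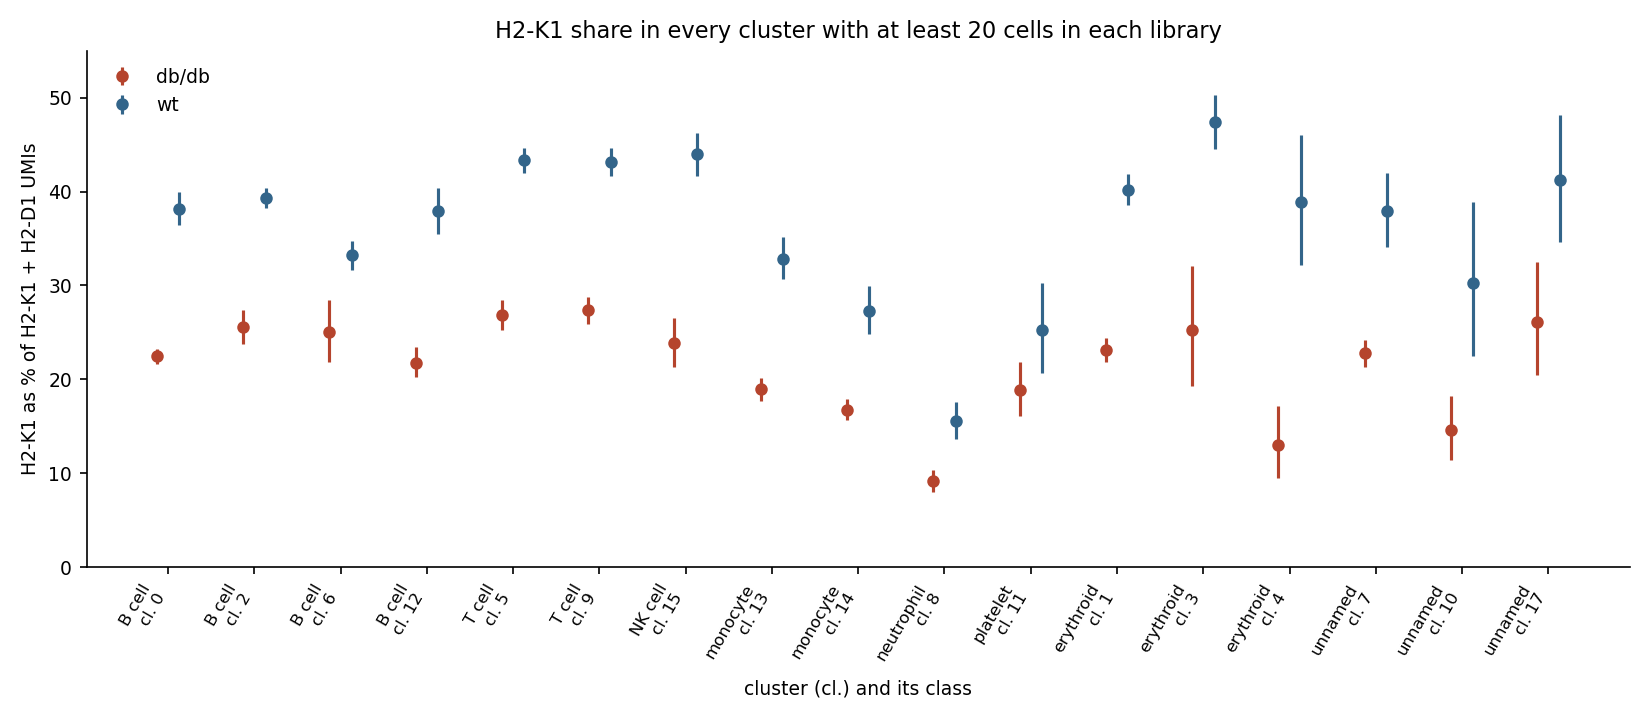
H2-K1 as a percent of the summed H2-K1 and H2-D1 UMIs (y axis) in each of 17 clusters (x axis, with the class), db/db left of wt; lines are exact Clopper-Pearson 95% intervals over UMIs. The db/db point lies under the wt point in each cluster, at 22.5% and 38.2% in B cell cluster 0 and at 9.16% and 15.5% in neutrophil cluster 8.

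The difference was also seen cell by cell. Among cells with at least 8 UMIs of the pair, the median share of H2-K1 was 22.2% over 866 db/db B cells and 36.8% over 957 wt B cells, and the middle part between the quartiles ran from 12.5% to 30% in db/db and from 25% to 50% in wt. T cells had medians of 25% in db/db and 41.2% in wt, monocytes 16.7% in db/db and 30.3% in wt, and neutrophils 7.14% in db/db and 15.4% in wt. Cells with more H2-K1 than H2-D1 UMIs were 2.77% of those db/db B cells (1.78% to 4.10%) and 17.3% of the wt B cells (15.0% to 19.9%). Among T cells they were 3.69% in db/db and 26.6% in wt. After each cell was thinned to 1000 UMIs, an H2-K1 UMI was seen in 51.8% of db/db and 64.8% of wt B cells, and in 25.9% of db/db and 42.2% of wt neutrophils; without thinning these shares were 77.9% and 87.8% in B cells and 38.1% and 59.8% in neutrophils. Erythroid cells had H2-K1 UMIs in 16% of thinned db/db cells and 27.1% of thinned wt cells, at median depths before thinning of 5258 and 2796 UMIs. B cell markers summed to 2812 CPM in db/db and 3316 CPM in wt erythroid cells, with 3 of 13 genes higher in db/db and none at 0 in either library; the part of free RNA and of joined cells in these shares was not tested.

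**Figure D3:**
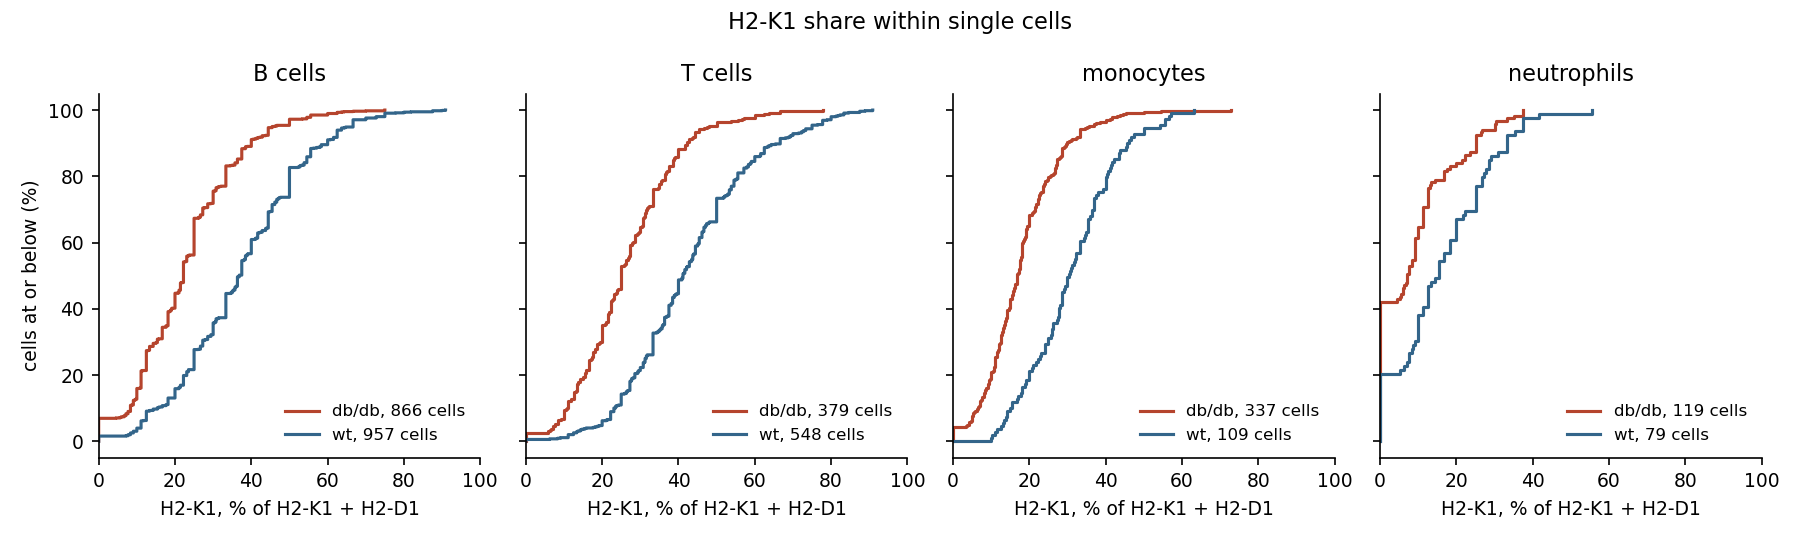
Cumulative share of cells (y axis, percent) against the H2-K1 percent of a cell's H2-K1 and H2-D1 UMIs (x axis), for cells with at least 8 such UMIs, in B cells, T cells, monocytes and neutrophils of db/db and wt. The db/db curve lies left of the wt curve through the medians of all 4 classes, 22.2% and 36.8% in B cells.

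Among the nonclassical heavy chains, H2-Q7, a Qa-2 gene, was lower in db/db in B, T and NK cells, monocytes and neutrophils. It had 76.6 CPM in db/db B cells and 183 CPM in wt B cells, a ratio of 0.418 (0.371 to 0.470). In T cells it had 219 CPM in db/db and 449 CPM in wt, a ratio of 0.488 (0.435 to 0.545). The ratio was 0.412 in NK cells, where the gene was highest, at 270 CPM in db/db and 656 CPM in wt, and 0.341 in monocytes. In neutrophils H2-Q7 had 9 UMIs in db/db and 22 in wt, a ratio of 0.212 (0.0858 to 0.478). H2-Q7 was lower in db/db also relative to H2-K1, by ratios of ratios of 0.649 (0.572 to 0.735) in B cells and 0.701 (0.618 to 0.795) in T cells.

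H2-Q6 went with H2-Q7 in B cells but not in T cells. In B cells it had 67.2 CPM in db/db and 146 CPM in wt, a ratio of 0.460 (0.405 to 0.523), whereas in T cells it had 119 CPM in db/db and 127 CPM in wt, a ratio of 0.932 (0.785 to 1.10). There were 1.14 H2-Q7 UMIs per H2-Q6 UMI in db/db B cells and 1.26 in wt B cells, a ratio of ratios of 0.908 with an interval of 0.762 to 1.08 that holds 1. In T cells there were 1.84 in db/db and 3.52 in wt, a ratio of ratios of 0.523 (0.426 to 0.643). The intervals of B and T cells do not overlap; the difference between the classes was not tested otherwise. H2-Q6 was also lower in db/db in NK cells, at 138 and 297 CPM, in monocytes, at 27.4 and 80.9 CPM, and in erythroid cells, at 13.9 and 46.7 CPM, db/db first in each pair, while neutrophils held only 11 db/db and 6 wt UMIs. H2-Q4 differed less: its ratio was 0.880 (0.797 to 0.971) in B cells, 1.14 (0.9993 to 1.31) in T cells and 0.782 (0.558 to 1.11) in monocytes.

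H2-T23 was lower in db/db in monocytes and neutrophils and, by less, in T cells. Monocytes had 232 CPM in db/db and 403 CPM in wt, a ratio of 0.576 (0.490 to 0.678), and neutrophils had 200 CPM in db/db and 327 CPM in wt, a ratio of 0.612 (0.477 to 0.786). Both depended on the processing: the log2 ratio in monocytes, -0.77, was -0.30 without cells of several lineages and -0.43 in the largest cluster, and that in neutrophils, -0.68, was -0.38 under TMM and -0.32 with classes taken from marker UMIs of each cell. The ratio was 0.921 (0.859 to 0.987) in B cells and 0.741 (0.646 to 0.849) in T cells. In T cells with Cd4 it was 0.530 (0.362 to 0.760) and in T cells with Cd8a or Cd8b1 0.820 (0.673 to 0.996). In classical monocytes it was 0.493 and in nonclassical ones 0.659.

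H2-Q10 had its highest level in neutrophils of wt. It was counted with 27 UMIs in 357 db/db neutrophils and 250 UMIs in 164 wt neutrophils, which is 37.7 CPM in db/db and 675 CPM in wt, a ratio of 0.0559 (0.0361 to 0.0833). The gene was seen in 11 of 357 db/db neutrophils (3.08%) and in 96 of 164 wt neutrophils (58.5%), at median depths of 1475 and 1892.5 UMIs. Thinned to 1000 UMIs the shares were 2.80% (1.29% to 5.26%) in db/db and 46.3% (38.01% to 54.7%) in wt. In B cells, which serve here as a background at median depths of 2193 and 2428 UMIs, the gene was seen in 3.07% of db/db and 2.55% of wt cells, or thinned in 1.35% and 0.802%, with 13.5 CPM in db/db and 10.03 CPM in wt. The share of db/db neutrophils is near that background, while the share of wt neutrophils is far above it. By CPM db/db neutrophils, at 37.7 (24.9 to 54.9), lay above db/db B cells, at 13.5 (10.5 to 17.1). Whether the UMIs of db/db neutrophils are expression was not tested, and they are not read as such. No wt neutrophil had more than 10 H2-Q10 UMIs, and 2 db/db neutrophils had 6. H2-Q10 made up 1.03% of the heavy chain UMIs of db/db neutrophils and 14.2% of those of wt neutrophils. In the other classes it stayed between 0 and 22.99 CPM in db/db and between 0 and 12.9 CPM in wt. All 7 hepatocyte markers had 0 UMIs in neutrophils of both libraries, for which the upper interval limits of their sum are 5.16 CPM in db/db and 9.96 CPM in wt.

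**Figure D4:**
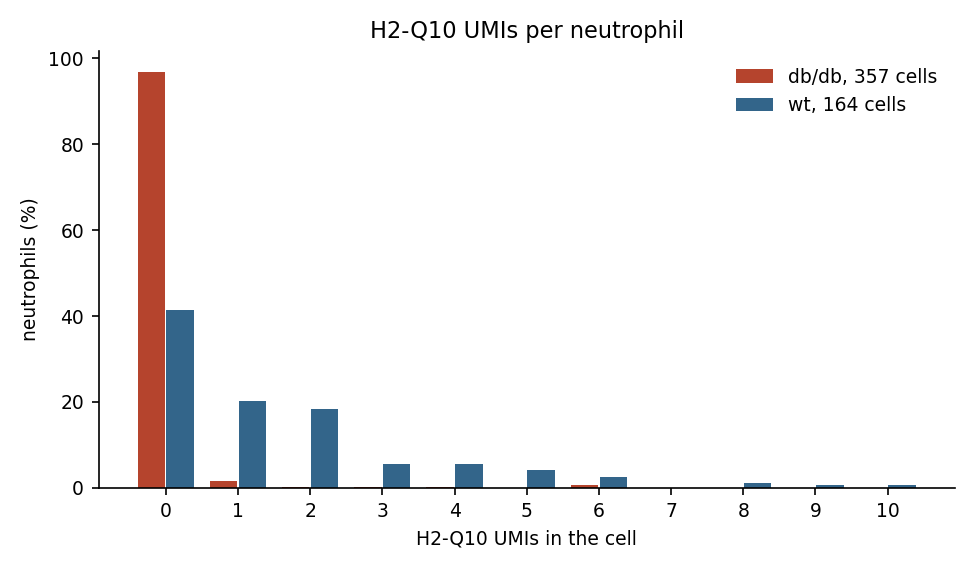
Percent of neutrophils (y axis, from 0) by the number of H2-Q10 UMIs in the cell (x axis), db/db left of wt, 357 and 164 cells. No UMI was seen in 96.9% of db/db and 41.5% of wt neutrophils.

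B2m was lower in db/db in neutrophils and monocytes and closer to equal elsewhere. It had 937 CPM in db/db neutrophils and 1634 CPM in wt neutrophils, a ratio of 0.573 (0.513 to 0.641), and 1902 CPM in db/db monocytes and 2719 CPM in wt monocytes, a ratio of 0.700 (0.659 to 0.743). In B cells the ratio was 0.902 (0.869 to 0.936), in T cells 0.857 (0.815 to 0.9005), in NK cells 1.06 (0.924 to 1.22), in platelets 1.03 and in erythroid cells 0.943. Heavy chain UMIs per B2m UMI were 3.93 in db/db and 2.90 in wt neutrophils, 2.67 and 2.09 in db/db and wt monocytes, and 3.36 and 2.83 in db/db and wt T cells. Platelets had the fewest, 1.08 in db/db and 1.25 in wt. In neutrophils haemoglobin took 27.0% of the UMIs in db/db and 16.98% in wt, and B cell markers summed to 664 CPM in db/db and 1148 CPM in wt, with 1 of 13 genes higher in db/db and none at 0 in either library; their part in the B2m difference was not tested. On the log2 scale B2m in neutrophils was at -0.80, at -0.64 without haemoglobin, mitochondrial and Gm42418 UMIs and at -0.48 under TMM. In monocytes it was at -0.51, at -0.41 under TMM and at -0.40 after thinning. Neutrophil markers themselves summed to 99814 CPM in db/db and 97732 CPM in wt.

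The make-up of the heavy chain RNA differed accordingly. H2-D1 gave 64.8% of heavy chain UMIs in db/db and 48.8% in wt B cells, 60.7% in db/db and 43.5% in wt T cells, 67.1% in db/db and 44.4% in wt NK cells, 76.2% in db/db and 61.0% in wt monocytes, and 82.9% in db/db and 63.9% in wt neutrophils. H2-K1 gave 19.2% in db/db and 29.4% in wt B cells and 8.36% in db/db and 11.7% in wt neutrophils. In neutrophils H2-Q10 gave 1.03% in db/db and 14.2% in wt, while the CPM ratio of H2-D1 was 1.006 there. By CPM the larger H2-D1 share of db/db neutrophils thus came without a higher H2-D1 level. Under TMM the log2 ratio of H2-D1 there was 0.32, beside 0.01 by CPM, so this reading depends on the scaling. A heavy chain RNA pool of nearly the same size in B and T cells therefore held a larger H2-D1 part in db/db than in wt.

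Past a log2 ratio of 0.5, 3 of 8 members were lower in db/db B cells (H2-K1, H2-Q6 and H2-Q7) and 0 were higher; of 10100 genes measured there, which have at least 20 UMIs in both libraries together, 1.79% were lower and 1.18% higher by that much. In T cells H2-K1 and H2-Q7 were lower and H2-D1, at 0.51, was higher, against 3.03% lower and 2.09% higher of all genes; both classical genes lie at the threshold there, with H2-K1 at -0.48 under TMM and H2-D1 at 0.40 without cells of several lineages. In B cells H2-K1 was at -0.48 with classes taken from marker UMIs. In NK cells 3 of 7 measured members were lower and 1 was higher, against 13.5% and 17.7%. In monocytes 5 of 7 were lower, against 9.37% of all genes, and 0 were higher, against 6.64%. In neutrophils 5 of 7 were lower, against 22.4%, and 0 were higher, against 5.72%; without cells of several lineages 4 of 7 were lower. This is a class in which the median of all genes was itself -0.19 and that of the members -0.80. Platelets had 1 of 5 lower, against 32.1%, and 0 higher, against 11.9%, and erythroid cells had 3 of 8 lower, against 6.75%, and 0 higher, against 2.30%. The members were chosen with results of these data known, so these counts describe them and single nothing out.

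Lists of 36 genes were read, of which 32 were used here. They hold the genes that make, carry and load the peptides and the transcription factors of class I. Another 17 of the 36 are other class I and class I-like heavy chains. The counts and medians below are taken over all lists together, these heavy chains included. In B cells 2 of 26 measured genes were lower past a log2 ratio of 0.5 and 0 were higher, beside the 1.79% and 1.18% of all genes. Tap1, a subunit of the peptide transporter, had 74.7 CPM in db/db and 124 CPM in wt (log2 ratio -0.66). Canx, a chaperone of heavy chains, was at -0.53. The 6 genes of peptide generation, which include the immunoproteasome subunits that cut proteins into peptides, lay between -0.35 and 0.04.

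In T cells 0 of 26 were lower, beside 3.03% of all genes, and 2 class I and class I-like genes were higher, beside 2.09%. These were H2-Q1, at a log2 ratio of 0.70 on 16 db/db and 4 wt UMIs, and Fcgrt, a heavy chain that binds antibodies, at 0.64. In monocytes 4 of 23 were lower, beside 9.37% of all genes, and 1 was higher, beside 6.64%. The lower genes were led by Hfe, a heavy chain of iron metabolism, at 119 CPM in db/db and 239 CPM in wt (log2 ratio -0.95). Tap2, the other transporter subunit, followed at -0.79, and Nlrc5, with only 20 db/db and 13 wt UMIs, at -0.63. Rfxank was at 0.52 on 26 db/db and 4 wt UMIs. The ratio intervals of Nlrc5 (0.231 to 1.07) and Rfxank (0.716 to 8.14) hold 1. In neutrophils 3 of 15 were lower, a share no larger than the 22.4% of all genes, and 0 were higher. Tapbp (tapasin, which holds heavy chains at the transporter) was at -0.73, Tap2 at -0.64 and Canx at -0.51. Tap2 had 26 db/db and 23 wt UMIs and Canx 21 and 17. The ratio intervals of Tap2 (0.321 to 1.07) and Canx (0.321 to 1.29) hold 1. The medians of the lists were -0.08 in B cells, -0.08 in T cells, -0.22 in monocytes and -0.21 in neutrophils, beside -0.02, -0.04, -0.04 and -0.19 over all genes.

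**Figure D5:**
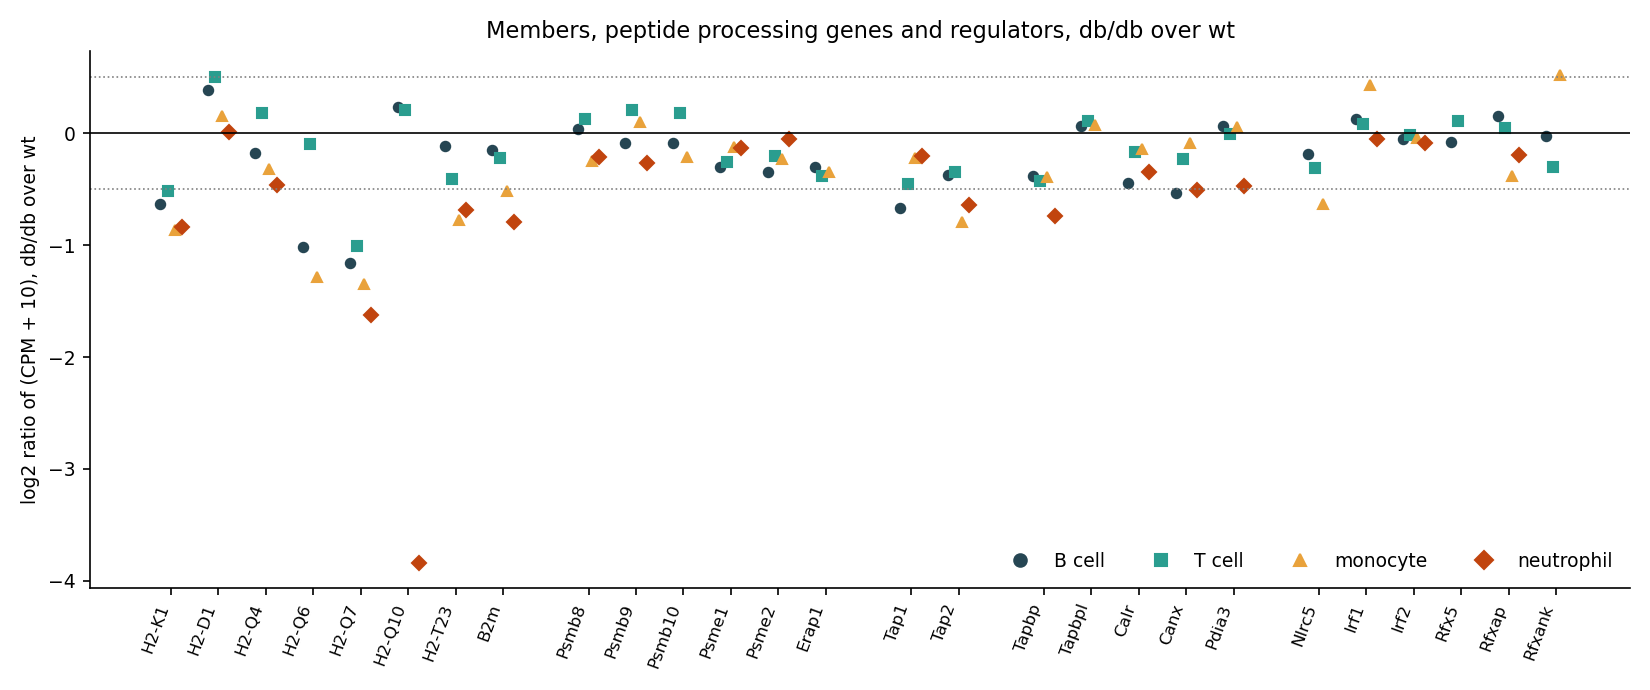
Log2 ratio of CPM plus 10, db/db over wt (y axis), for the 8 members, for peptide generation, transport and loading genes and for transcription factors of class I (x axis, in that order), with 1 marker for each of 4 classes; dotted lines stand at -0.5 and 0.5, and genes with under 20 UMIs are left out. H2-K1 and H2-Q7 lie under 0 in all 4 classes, H2-D1 lies above 0, and H2-Q10 reaches -3.84 in neutrophils.

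The other genes of the MHC region, which start between 33 and 38 Mb of chromosome 17, were past the threshold in B cells at shares near those of all genes. Of 252 such genes 110 were measured there, of which 2 were higher (1.82%) and 3 lower (2.73%) past a log2 ratio of 0.5. In T cells the shares lay above those of all genes, 5.15% higher and 7.22% lower against 2.09% and 3.03%. So did those of monocytes, 8.89% and 14.4% against 6.64% and 9.37%. NK cells had 21.1% and 10.5%, against 17.7% and 13.5%. Neutrophils had 2% and 30%, against 5.72% and 22.4%. Platelets had 13.04% and 47.8%, against 11.9% and 32.1%. Erythroid cells had 2.11% and 6.32%, against 2.30% and 6.75%. The cause of these shares was not tested. Extremes were taken from all genes of the region, members included, that reached 50 UMIs in their higher library and had an interval without 1. The highest log2 ratio in B cells was that of Sapcd1, with 144 CPM in db/db and 26.7 CPM in wt (2.07). A930015D03Rik (0.54), H2-Aa (0.39), a class II chain, H2-D1 (0.39) and Znrd1 (0.38) followed. The lowest were H2-Q7 (-1.16), H2-Q6 (-1.01), H2-Eb2 (-0.98) and H2-Ob (-0.90), both class II chains, and Tap1 (-0.66). Genes on both sides of H2-D1 on the chromosome thus had ratios of either sign.

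Over the 14 sums of class and library, the genes whose log2 CPM was most like that of the summed heavy chains, of 9509 compared, were 1810037I17Rik (Pearson r = 0.980), Atp5j (0.976), Lnpep (0.972), Tmem30a (0.967) and Dynlrb1 (0.967). These points share 2 libraries and range in haemoglobin from 4.27% to 75.7% of UMIs, and the values are a description. With B2m, H2-D1 had r = 0.84, H2-T23 0.82, H2-K1 0.70 and H2-Q10 0.13 over the same sums.

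The heavy chains are close relatives, so how far their 3′ ends can be told apart bears on all these counts. Of the 60-base windows in the last 400 bases of the longest coding transcript, none of H2-K1, H2-Q7, H2-Q10 and B2m occurs in a transcript of another gene in the annotation of this build. For H2-D1 6.45% do, for H2-Q4 31.4%, for H2-Q6 31.7% (H2-Q4 among the other genes) and for H2-T23 28.7%. The last 400 bases of H2-K1 and H2-Q7 are 80.5% identical, those of H2-Q7 and H2-Q10 81.25% and those of H2-K1 and H2-D1 64.25%. The build is that of C57BL/6J, which carries haplotype b of the MHC, and C57BLKS/J is known to carry haplotype d; reads of an allele that differs from the reference may be lost or counted for a related gene. Whether this changed any value was not tested.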

How the data were processed

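Peripheral blood cells of db/db and wt mice were measured, 1 library each. The deposited matrices hold raw counts (whole numbers of UMIs for each gene in each barcode), made by the authors with Cell Ranger 3.0.2 on mm10 per the submitters' processing notes; the handling of reads that fit several genes is not given in the sources used here. Here, kept barcodes of both libraries (total UMIs 70039773 in db/db and 50540198 in wt before filtering, at least 500 per barcode) were scaled to 10000 and put on a log scale, and both libraries were clustered in 1 run with no batch correction (scanpy 1.11.5, 2000 variable genes, 30 principal components, 15 neighbours, Leiden resolution 1). A cluster took a class name with at least 3 of its markers among its 50 leading genes and no other class ahead among the top 10. No doublet caller was used; cells with markers of several lineages were left out in an alternative. UMIs were summed per class and library (CPM, exact Poisson 95% intervals; CPM ratios, conditional binomial; ratios of 2 genes, conditional odds ratio; shares, Clopper-Pearson); log2 ratios used CPM plus 10. PCR and free RNA are outside these intervals. The intervals of CPM ratios and of 2-gene ratios were checked on simulated counts. Those counts were drawn with counting error only, so they do not check spread between cells, mice or libraries. TMM came from edgeR 4.0.16, used for scaling only. Named genes were all members, up to 3 list genes per direction and class, and the 5 highest and 5 lowest of the MHC region in B cells (at least 50 UMIs). Members and lists were chosen with earlier results of these data known. H2-Ea-ps, a gene of the lists, was not analysed here. A further list gene is not reported here.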

Additional observations from a re-analysis of the deposited data

Results flagged for a closer look

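Barcodes outside the comparisons also carried class I UMIs, and they are reported here because their signal lay in data that no comparison above uses. In barcodes over the mitochondrial limit, 374 in db/db and 1849 in wt, there were 0.513 H2-K1 UMIs per H2-D1 UMI in db/db and 0.887 in wt, a log2 ratio of ratios of -0.79. In barcodes with under 200 genes, 13429 in db/db and 9124 in wt, there were 0.166 in db/db and 0.757 in wt, a log2 ratio of ratios of -2.19. Both have the sign seen in the named classes.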

How the results depend on the processing

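With 1 library per genotype the values carry no replicate check, and no library could be left out. No paired analysis was possible because each group has 1 sample. The log2 ratio of H2-K1 over H2-D1 stayed below 0 in every alternative run: between -1.13 and -0.57 in B cells, -1.33 and -1.01 in T cells, -1.09 and -0.89 in monocytes and -1.04 and -0.54 in neutrophils. Values outside the counting interval were, in B cells, -0.85 with classes taken from marker UMIs of each cell, -0.92 in cluster 2, -0.57 in cluster 6 and -1.13 in cluster 12, in T cells -1.33 with classes from marker UMIs, and in neutrophils -0.54 without cells of several lineages (192 db/db and 63 wt cells). Without shared barcodes the values were -1.03, -1.04, -1.03 and -0.87 in B cells, T cells, monocytes and neutrophils. Single clusters and the removal of shared barcodes were chosen after seeing the data.

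The log2 ratio of summed heavy chains was small and changed sign in lymphocytes. In B cells it moved to -0.14 with at least 100 genes, -0.049 with under 5% mitochondrial UMIs, 0.016 with classes from marker UMIs, -0.078 without haemoglobin, mitochondrial and Gm42418 UMIs and -0.058 after thinning. In T cells it moved to 0.082 with the members left out of the clustering, 0.81 with classes from marker UMIs (2 db/db and 37 wt cells), -0.045 without cells of several lineages, -0.059 in the largest cluster, 0.082 without haemoglobin, mitochondrial and Gm42418 UMIs, 0.071 under TMM and 0.10 after thinning. In monocytes it moved to -0.33 with classes from marker UMIs, -0.089 with equal weight per cell and -0.059 under TMM. In neutrophils it moved to -0.20 with classes from marker UMIs, -0.15 without cells of several lineages, -0.25 with equal weight, -0.21 without haemoglobin, mitochondrial and Gm42418 UMIs and -0.052 under TMM. The cause of these moves was not tested. H2-Q7 in T cells reversed to 0.24 with classes from marker UMIs, on those 2 db/db cells. TMM left 3 of 7 members lower past the threshold in neutrophils, 4 of 7 in monocytes and 1 of 8 in T cells, against 5, 5 and 2; H2-D1 in T cells passed it in neither direction without cells of several lineages. With genes of at least 1 UMI counted, 761 genes were higher and 2155 lower in neutrophils, against 236 and 922. H2-D1 in monocytes was at -0.0052 with classes from marker UMIs. H2-Q10 in neutrophils lay between -4.13 and -3.05 under the 16 alternatives run. In NK cells the summed heavy chains moved to -0.0013 without haemoglobin UMIs and -0.038 without haemoglobin, mitochondrial and Gm42418 UMIs, against 0.13, settings chosen after seeing the data. NK values are limited by 55 and 104 cells, and low genes by their counts.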
